A study of Mus musculus with 12 samples.

Results

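The TRIM (tripartite motif) genes were examined across 12 RNA sequencing libraries of mouse T cells. Members were all genes of the deposited expression table whose symbol is Trim followed by a number and at most a letter. This gave 42 Ensembl gene IDs of the 11921 in that table, and they carry 41 symbols, since Trim30b has 2 IDs. The count files hold 38924 gene IDs, and 26 further Trim-named IDs among them are not in the expression table. Of these 26, 10 had no read in any library, 20 never exceeded a count of 3, and the highest count of any was 27.

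The libraries form 4 groups of 3, made from CD4+ T cells of the spleens of C57BL/6 mice, either wild-type (WT) or STING KO by their labels. The study's methods name the latter STINGgt/gt, the Goldenticket line, which has a missense mutation in the STING gene throughout the body and no functional STING protein. Sorted naive T cells were stimulated through CD3 and CD28 with antibodies for 2 days, rested for 1 day, and then kept for 16 h with the solvent DMSO or with 10-carboxymethyl-9-acridanone (CMA), a cell-permeable compound that binds and activates mouse STING. The comparisons ask what activation of STING changed in T cells, and whether the compound changed anything where STING does not function. The paper reports that overnight CMA led to apoptosis of WT T cells but not of STINGgt/gt T cells. The part of dying or surviving cells in the WT libraries with CMA was not tested. The labels do not say whether replicates came from separate animals, so the p-values measure the spread between these libraries. All libraries are bulk RNA, in which fewer cells of a type and less RNA per cell cannot be told apart.

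TRIM proteins share an N-terminal module in which a RING finger, which recruits ubiquitin-charged E2 enzymes, is followed by B-box zinc fingers and a coiled coil, and most of them act as ubiquitin ligases. Some members, such as TRIM14, TRIM16, TRIM44 and TRIM66, have the rest of the module but no RING finger. The C-terminal part sets what the protein binds, and in many members it is a PRY-SPRY domain, in others a PHD finger with a bromodomain, NHL repeats or a microtubule-binding COS box. A part of the family is switched on by interferon and either blocks viruses directly or adjusts the pathways that sense foreign nucleic acid, including cGAS and STING.

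Values are CPM, the deposited counts of a gene relative to the size of its library after TMM scaling. A gene was called changed where edgeR's quasi-likelihood p was under 0.05 once adjusted by the Benjamini-Hochberg procedure over the 13811 genes that passed the filter on low counts. Adjusted p-values below come from that test. All 42 members passed the filter, but 2 of them, Trim34b and the second ID of Trim30b, passed it only through the WT libraries with CMA. Counts of members are therefore given over the other 40. Each library held between 27414450 and 43784910 reads assigned to genes, of which 56021 to 147271 fell on TRIM genes. Reads that aligned to several places were not counted and made up 29.6% to 30.3% of entries in WT with DMSO, 27.8% to 27.9% in WT with CMA and 28.1% to 29.0% in STINGgt/gt, so members with near-identical copies are undercounted. Reads on no gene made up 4.86% to 5.47%, 6.79% to 7.16% and 5.98% to 6.54% in these groups. The WT libraries with DMSO differed most among themselves: between pairs of replicates the chi-square per degree of freedom over genes was 10.2, 10 and, for replicates 2 and 3, 30, against 2.64 to 6.85 in the other groups. Transcripts of CD4+ T cells were abundant in every library: the 7 T cell markers Cd3d, Cd3e, Cd3g, Cd4, Cd28, Trac and Lck summed to 2457 to 2551 CPM in WT with DMSO, 2261 to 2331 in WT with CMA and 2592 to 2663 in STINGgt/gt. With CMA in WT 4 of the 7 were called lower (Cd3e by a log2 value of -0.66) and Cd4 higher (log2 0.19), beside 37.4% and 33.0% of all genes. Markers of other cells were present too. The 6 B cell markers summed to 271 to 292 CPM in WT with DMSO, 359 to 388 in WT with CMA and 117 to 125 in STINGgt/gt. For the 7 myeloid markers these ranges were 48.7 to 52.7, 60.1 to 63.3 and 34.5 to 38.9 CPM, most of it Cst3, which was higher with CMA in WT (38.6 ± 2.35 and 55.7 ± 2.43 CPM, SD, n = 3), while Lyz2, Itgam and Fcer1g were lower (3.25 and 1.16, 3.31 and 1.02, and 4.23 and 2.54 CPM on average). Of the B cell markers 4 were called higher and 1 lower with CMA in WT, beside 33.0% and 37.4% of all genes. For the 6 markers of CD8 T and NK cells they were 2021 to 2476 and 1479 to 1576 in WT, and 665 to 916 in STINGgt/gt, most of it Gzmb, which activated CD4+ T cells can also express. With CMA in WT 5 of these 6 were called lower, beside 37.4% of all genes. They were Gzmb with a log2 value of -0.53, Cd8a with -0.83, Prf1 with -1.50, Ncr1 with -1.67 and Klrb1c with -2.40. None of these markers was at 0 in any group, and their part in the results below was not tested.

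The 10 neighbouring genes Trim6, Trim34a, Trim5, Trim12a, Trim34b, Trim12c, Trim30b, Trim30c, Trim30a and Trim30d lie together on chromosome 7 of GRCm38, from the start of Trim6 (chr7:104218793-104235152) to the end of Trim30d (chr7:104470014-104507849). Their spans interleave, since that of Trim34a holds Trim5, Trim12a and Trim34b and overlaps Trim12c. Their promoters were read for letters that interferon-activated factors are known to bind. RefSeq windows of 250 bases before and 50 after each start, build GRCm38.p6, were at hand for 32 of the 41 symbols. Windows were missing for Trim3, Trim8, Trim11, Trim14, Trim16, Trim33, Trim35, Trim36 and Trim65. The core of the interferon-stimulated response element, searched on both strands as GAAA and GAAA with any NN between them, was found in 9 of the 32, which were Trim2, Trim5, Trim12a, Trim12c, Trim21, Trim26, Trim30a, Trim30d and Trim34a. Of all 27025 genes with such windows, 3.99% held it. The letters TTCNNNGAA of the gamma-activated site were in 3 of the 32 members and in 9.55% of all genes, and an NF-κB-like pattern, GGG and CC with NNNNN between them, was in 22 of the 32 and in 53.5%. A match describes the letters of the window and is not a measured site.

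Stretches of 130 bases are shown for the 8 genes in which the response element letters were found and that were higher with CMA in WT. They run 5′ to 3′ on the strand of the gene, from RefSeq on GRCm38.p6, with the matching letters in capitals (TTTC first where the match is on the other strand). All but that of Trim26, which ends before the start, take in 100 bases before the start and 30 transcribed bases. They are on the plus strand for Trim34a (chr7:104244357-104244486) and Trim26 (chr17:36836946-36837075). They are on the minus strand for Trim5 (chr7:104288077-104288206), Trim12a (chr7:104315466-104315595), Trim12c (chr7:104353320-104353449), Trim30a (chr7:104465164-104465293), Trim30d (chr7:104507820-104507949) and Trim21 (chr7:102565453-102565582).
Trim34a: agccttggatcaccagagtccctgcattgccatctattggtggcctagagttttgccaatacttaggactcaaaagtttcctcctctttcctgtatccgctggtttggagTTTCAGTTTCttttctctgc
Trim5: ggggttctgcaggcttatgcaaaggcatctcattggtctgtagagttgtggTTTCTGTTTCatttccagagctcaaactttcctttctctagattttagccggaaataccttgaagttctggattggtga
Trim12a: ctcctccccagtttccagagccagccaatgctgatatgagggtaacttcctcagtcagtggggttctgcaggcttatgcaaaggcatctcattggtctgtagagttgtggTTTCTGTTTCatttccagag
Trim12c: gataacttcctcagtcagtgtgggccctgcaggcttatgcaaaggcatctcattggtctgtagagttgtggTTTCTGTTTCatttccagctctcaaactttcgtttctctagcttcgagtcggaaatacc
Trim30a: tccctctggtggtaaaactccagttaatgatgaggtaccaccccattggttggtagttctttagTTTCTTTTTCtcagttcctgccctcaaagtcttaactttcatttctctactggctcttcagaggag
Trim30d: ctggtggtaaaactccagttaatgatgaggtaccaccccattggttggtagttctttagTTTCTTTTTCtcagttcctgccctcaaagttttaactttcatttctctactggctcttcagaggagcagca
Trim21: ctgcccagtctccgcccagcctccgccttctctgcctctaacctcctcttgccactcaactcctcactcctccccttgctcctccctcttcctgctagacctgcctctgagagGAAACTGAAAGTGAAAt
Trim26: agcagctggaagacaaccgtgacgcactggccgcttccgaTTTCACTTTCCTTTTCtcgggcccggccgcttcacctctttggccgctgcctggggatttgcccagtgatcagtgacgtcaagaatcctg

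In Trim30a and Trim30d the letters are the same, TTTCTTTTTC, and begin 36 and 41 bases before the start. Trim30a has another RefSeq start, and in its window the same letters begin at transcribed base 3. Trim5, Trim12a and Trim12c share TTTCTGTTTC, in Trim5 and Trim12c before the start and in Trim12a from transcribed base 11. Trim21 and Trim26 each hold 2 overlapping matches.

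With CMA, the share of all gene reads that fell on TRIM genes rose in WT T cells. It was 0.204%, 0.204% and 0.215% with DMSO and 0.402%, 0.395% and 0.401% with CMA, and the groups did not overlap. In STINGgt/gt it was 0.224%, 0.223% and 0.237% with DMSO and 0.231%, 0.233% and 0.233% with CMA, within a narrow band in which the groups overlapped. As a sum, the members came to 2090 ± 89.2 CPM in WT with DMSO, 4083 ± 49.2 in WT with CMA, 2249 ± 64.6 in STINGgt/gt with DMSO and 2294 ± 15.5 in STINGgt/gt with CMA (SD, n = 3). Of the summed TRIM level, Trim30a took 7.91% to 10.6% in WT with DMSO and 19.4% or more with CMA.

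Of the 40 members, 33 were called in WT, 23 of them higher and 10 lower with CMA. Among all genes tested 70.4% were called, 33.0% higher and 37.4% lower, so that the share of members called lower was below that of all genes and the share called higher was above it. At least a 2-fold change as well was met by 12 members upwards and 3 downwards, beside 9.32% and 7.68% of all genes. The median log2 change was 0.33 over the 40 members and -0.04 over all genes. All 3 CMA libraries lay above all 9 other libraries for 23 members and below them for 8, beside 27.7% and 28.6% of all genes. In STINGgt/gt 1 member was called, Trim16, which was lower with CMA, beside 1.32% of all genes (0.398% higher and 0.920% lower). No member changed at least 2-fold there, beside 0.0145% of all genes in each direction. The median log2 change there was 0.01 for the members and 0.00 for all genes, and 8 of the 40 members had an unadjusted p under 0.05, beside 12.96% of all genes. The test of the difference between the genotypes called 31 of the 40 members, beside 58.8% of all genes. The CMA effect was higher in WT for 22 of them and lower for 9 (27.2% and 31.6% of all genes), and it differed at least 2-fold for 12 and 3 (8.70% and 7.30% of all genes).

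**Figure D1:**
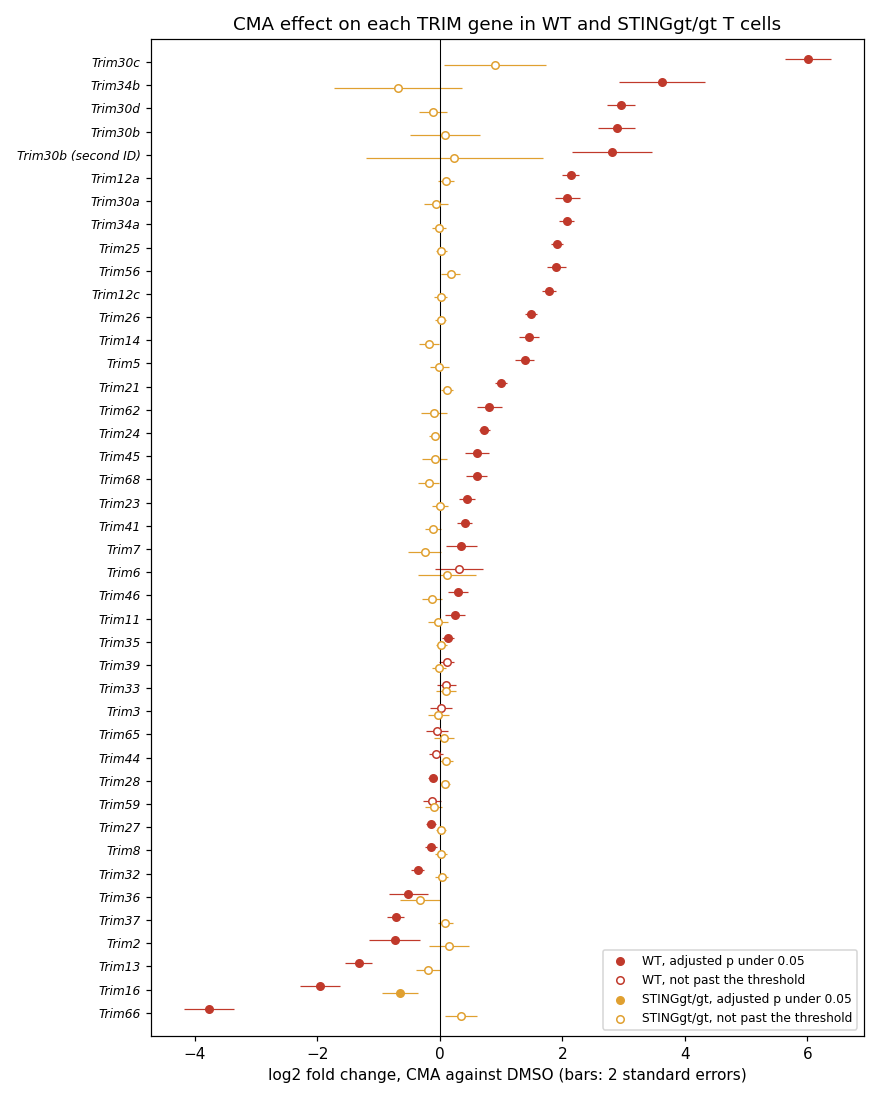
Points give the log2 fold change of each TRIM gene, CMA against DMSO, in WT (red) and STINGgt/gt (orange), with bars of 2 standard errors from edgeR, and filled points are past an adjusted p of 0.05. The WT values run from -3.78 for Trim66 to 6.01 for Trim30c, and Trim16 is the filled orange point. Trim34b and the second ID of Trim30b are also drawn as filled red points. They passed the filter on low counts only through WT with CMA, so their filled points are a description and no test.

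The widest rises were in the chromosome 7 neighbours, relatives of the primate restriction factor TRIM5, whose PRY-SPRY domain can recognise retroviral capsids. Over the 9 of them counted, 8 rose in WT, beside 33.0% of all genes, with a median log2 change of 2.08. None passed the threshold in STINGgt/gt (median 0.01), where 1.32% of all genes did. Trim30c (chr7:104382065-104390586) was at 0.401, 0.268 and 0.195 CPM in WT with DMSO, from counts of 11, 8 and 8, and at 18.5, 15.4 and 20.1 CPM with CMA, from counts of 664, 498 and 637. It was close to undetected with DMSO, and all CMA libraries lay above every other library. Its log2 change was 6.01 (SE 0.189, adjusted p = 7.08e-14, edgeR). In STINGgt/gt it stayed at 0.129, 0.219 and 0.156 CPM with DMSO and 0.213, 0.339 and 0.390 with CMA (log2 0.90, adjusted p = 0.378).

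Trim30d (chr7:104470014-104507849) rose from 28.0, 29.8 and 40.6 CPM to 264, 249 and 259 in WT. No CMA library came near a DMSO library, and the log2 change was 2.96 (SE 0.115, adjusted p = 9.65e-13, edgeR). In STINGgt/gt its values were 34.3, 33.7 and 44.4 CPM with DMSO and 35.3, 34.9 and 33.5 with CMA, and the groups overlapped. Trim30b (chr7:104355382-104369884), a lowly expressed neighbour, was at 1.02, 1.01 and 1.05 CPM with DMSO and 7.81, 7.62 and 7.47 with CMA in WT. The groups were far apart, with a log2 change of 2.89 (adjusted p = 4.23e-11). In STINGgt/gt it was lower throughout, at 0.232, 0.575 and 0.405 CPM with DMSO and 0.506, 0.430 and 0.338 with CMA. The second ID of Trim30b, an overlapping record (chr7:104355398-104358646), had counts of 2, 7 and 6 in WT with DMSO, 35, 36 and 38 with CMA, and 1 to 5 in STINGgt/gt.

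Trim30a (chr7:104409025-104465193) encodes a ligase known to restrain Toll-like receptor signalling and to promote the degradation of STING. It was the most abundant of these neighbours per length. Its levels in WT were 161, 175 and 232 CPM with DMSO and 812, 781 and 823 with CMA. Replicate 3 with DMSO was the highest of its group, yet far below every CMA library. The log2 change was 2.08 (SE 0.102, adjusted p = 1.95e-11, edgeR). In STINGgt/gt Trim30a was at 205, 190.3 and 232 CPM with DMSO and 199.5, 207 and 194 with CMA, overlapping groups with a log2 difference of -0.06 (adjusted p = 0.838).

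Trim12a (chr7:104299894-104315466), a mouse relative of TRIM5, was at 15.4, 17.7 and 17.2 CPM with DMSO and 76.9, 68.2 and 76.6 with CMA in WT, a log2 change of 2.14 (adjusted p = 1.26e-13). In STINGgt/gt it was at 29.3, 29.3 and 32.5 CPM with DMSO and 32.7, 34.7 and 30.5 with CMA. Its STINGgt/gt levels thus lay between the WT levels with and without CMA. Trim34a (chr7:104244457-104340693), the counterpart of the capsid-binding TRIM34, rose from 26.2, 30.9 and 29.3 to 122, 115 and 126 CPM in WT (log2 2.07, SE 0.0587, adjusted p = 2.04e-14). Its STINGgt/gt values were 35.0, 34.6 and 37.0 CPM with DMSO and 35.3, 36.4 and 33.9 with CMA. They overlapped, with a log2 difference of -0.01 (adjusted p = 0.950).

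Trim12c (chr7:104338754-104353362), another TRIM5 relative, was at 59.5, 62.4 and 70.1 CPM with DMSO and 222, 219 and 221 with CMA in WT (log2 1.78, adjusted p = 7.63e-14). Trim5 (chr7:104263386-104288094) was at 5.83, 5.97 and 6.83 CPM with DMSO and 17.1, 16.0 and 16.0 with CMA (log2 1.39, adjusted p = 7.99e-11). In STINGgt/gt Trim5 stood at 7.14, 7.25 and 7.10 CPM with DMSO and 6.84, 7.53 and 7.02 with CMA. Both genes were higher with CMA in every WT library, and neither passed the threshold in STINGgt/gt. Trim34b (chr7:104300230-104336909) gave counts of 2, 3 and 4 in WT with DMSO and 39, 49 and 29 with CMA, and 2 to 7 in STINGgt/gt, so that it was near the limit of detection outside WT with CMA. Trim6 (chr7:104218793-104235152), which makes free ubiquitin chains that act on the kinase IKKε, was the neighbour that did not pass the threshold. It was at 2.08, 1.41 and 1.39 CPM with DMSO and 1.98, 2.31 and 1.64 with CMA in WT, overlapping groups with a log2 difference of 0.31 (adjusted p = 0.169). Without WT DMSO replicate 1 this adjusted p was 0.0367. Some of these genes share transcript sequence: of all 50-base stretches of the Trim34b transcripts 56.8% also occur in another gene, mostly Trim34a, and the shares were 39.8% for Trim34a, 36.3% for Trim5, 33.0% for Trim12c, 10.4% for Trim12a, 7.49% for Trim30d and 5.98% for Trim30a. Reads that lie wholly in shared sequence cannot be told apart, and how many were lost was not measured, so the separate levels of these genes are uncertain. Exons of Trim12c and Trim5 also overlap those of Gm27995 and Gm24846 on the same strand.

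**Figure D2:**
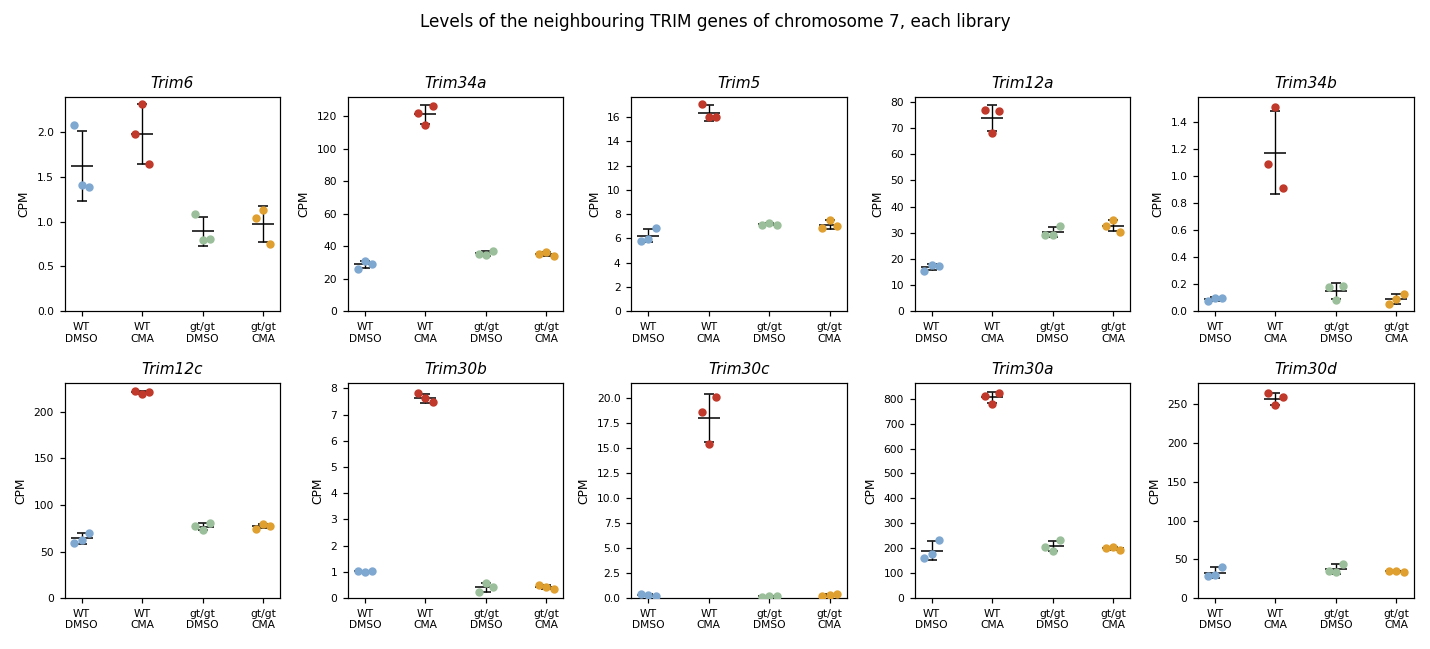
Each panel shows CPM on a linear axis from 0 for a gene of the chromosome 7 group in the 4 groups of 3 libraries (gt/gt stands for STINGgt/gt), with points for libraries, a dash for the mean and bars for the SD. For all genes shown but Trim6 the WT libraries with CMA lie above all other libraries.

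Members outside this group that interferon is commonly held to induce rose as well. Of 14 such TRIM genes counted, the neighbours included, 13 were higher with CMA in WT and Trim6 was not past the threshold, beside 33.0% of all genes higher, with a median log2 change of 1.90. None of the 14 was called in STINGgt/gt (median 0.02), beside 1.32% of all genes. Trim25 (chr11:88999376-89020293), the ligase that ubiquitylates the RNA sensor RIG-I and can also transfer ISG15, was at 146, 140.2 and 154 CPM with DMSO and 553, 548 and 554 with CMA in WT, with the smallest p of any member (log2 1.91, SE 0.0466, adjusted p = 3.33e-15, edgeR). STINGgt/gt libraries had 148, 148 and 161 CPM with DMSO and 157, 157 and 153 with CMA, overlapping groups. Trim26 (chr17:36837134-36859398), a ligase with reported targets in the interferon pathway, was at 43.6, 48.9 and 43.0 CPM with DMSO and 129.7, 125 and 125 with CMA in WT (log2 1.49, adjusted p = 1.12e-13). Trim21 (chr7:102557922-102565469), the cytosolic antibody receptor that directs antibody-bound virus to the proteasome, was at 28.7, 29.8 and 31.4 CPM with DMSO and 60.8, 59.3 and 59.4 with CMA (log2 1.00, adjusted p = 3.21e-11), a smaller change than that of the other genes of this list past the threshold. In STINGgt/gt Trim26 and Trim21 did not pass the threshold, with log2 values of 0.01 and 0.11.

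In a list of TRIM proteins known to act on cGAS or STING, chosen with earlier results of these data known, 5 are members. The list may be incomplete, and Trim13, which was lower in WT (log2 -1.32), is counted only in the wider list below. All 5 were called in WT, 4 higher and 1 lower (median log2 1.46), beside 70.4% of all genes called, 33.0% higher and 37.4% lower. None was called in STINGgt/gt (1.32% of all genes), and the difference between genotypes passed the threshold for all 5 (58.8% of all genes), with 4 more positive and 1 more negative. Trim56 (chr5:137105644-137116209), a ligase that modifies both cGAS and STING, was at 102, 87.1 and 116 CPM with DMSO and 383, 373 and 385 with CMA in WT. The groups were wide apart, and the log2 change was 1.90 (SE 0.0777, adjusted p = 1.93e-12, edgeR). In STINGgt/gt its values were 116, 122 and 132 CPM with DMSO and 134, 143 and 141 with CMA. There the CMA libraries also lay above the DMSO libraries, by a log2 value of 0.18 (adjusted p = 0.330). Over 21 alternative analyses this adjusted p ran from 0.0238 to 0.678 and was under 0.05 in 2.

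Trim14 (chr4:46493781-46536141), which stabilises cGAS by recruiting a deubiquitinase, was at 10.3, 9.46 and 9.95 CPM with DMSO and 26.5, 29.1 and 26.1 with CMA in WT (log2 1.46, SE 0.0809, adjusted p = 9.42e-11). It overlaps Nans on the other strand. Its STINGgt/gt values were 12.1, 12.9 and 14.8 CPM with DMSO and 10.6, 12.2 and 12.0 with CMA (log2 -0.18, adjusted p = 0.353), so that WT with CMA stood alone above the rest. Trim41 (chr11:48806404-48817353), which adds single ubiquitins to cGAS, moved less, from 41.8, 44.9 and 37.7 CPM with DMSO to 55.7, 54.2 and 54.4 with CMA in WT (log2 0.40, adjusted p = 2.87e-05). In STINGgt/gt Trim41 was at 39.5, 40.1 and 39.4 CPM with DMSO and 40.5, 34.6 and 35.7 with CMA. It overlaps Rack1 on the other strand. The WT groups of Trim41 did not overlap and the STINGgt/gt groups did.

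Trim32 (chr4:65604986-65616238), an NHL-repeat ligase that attaches ubiquitin chains to STING, went the other way. It was at 27.7, 25.6 and 27.9 CPM in WT with DMSO and 20.7, 22.2 and 20.5 with CMA, without overlap (log2 -0.36, SE 0.0542, adjusted p = 1.83e-05). Without functional STING it was at 28.2, 29.1 and 29.8 CPM with DMSO and 29.9, 30.04 and 29.0 with CMA, overlapping groups (log2 0.03, adjusted p = 0.856). In the wider list of 16 members known to act on cGAS, STING, the RNA sensors or the kinases and factors below them, 10 were higher and 3 lower in WT (33.0% and 37.4% of all genes), and none was called in STINGgt/gt (1.32% of all genes). Besides Trim32, the 3 lower ones were Trim13 and Trim27.

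The TIF1 genes, whose proteins carry a PHD finger and a bromodomain and act on chromatin, did not share a direction. Of the 4, 1 was higher, 2 were lower and 1 did not pass the threshold in WT, beside 33.0% higher and 37.4% lower of all genes, with a median log2 change of -0.00. Trim24 (chr6:37870811-37966296), a coregulator of nuclear receptors and a ligase for p53, was at 64.8, 62.6 and 61.1 CPM with DMSO and 102, 104 and 106 with CMA in WT (log2 0.73, SE 0.0465, adjusted p = 5.46e-10). In STINGgt/gt its levels of 82.5, 84.2 and 84.2 CPM with DMSO and 74.0, 80.0 and 83.1 with CMA overlapped and lay between the WT groups. Trim66 (chr7:109449006-109508134), which binds heterochromatin protein HP1, had the widest fall of all members. It was at 5.28, 4.46 and 4.07 CPM with DMSO, from counts of 145, 133 and 167, and at 0.279, 0.370 and 0.347 with CMA, from counts of 10, 12 and 11. The log2 change was -3.78 (SE 0.204, adjusted p = 6.60e-11, edgeR). T cells of STINGgt/gt mice had 3.61, 3.48 and 2.71 CPM with DMSO and 4.58, 3.82 and 4.16 with CMA, slightly higher with CMA without passing the threshold (log2 0.35, adjusted p = 0.244). The test of the difference gave a log2 value of -4.12 (adjusted p = 6.85e-10).

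Trim28 (chr7:13024152-13031035), the corepressor KAP1 that KRAB zinc finger proteins recruit to silence retroelements, had the highest level per length of all members in WT with DMSO. Its change was small: 384, 399 and 389 CPM with DMSO and 352, 369 and 359.9 with CMA in WT (log2 -0.12, adjusted p = 0.0136). In STINGgt/gt it was at 392.2, 393 and 402 CPM with DMSO and 428, 407 and 430.0 with CMA, which is the opposite order, without passing the threshold (log2 0.09, adjusted p = 0.329). The WT call was lost in 5 of 21 alternative analyses, with an adjusted p of 0.0664 without WT CMA replicate 1. Of the partners of Trim28, 2 gene IDs were higher and 4 lower among the 10 tested for 9 genes in WT, beside 33.0% and 37.4% of all genes, among them Hdac1 (log2 0.30, adjusted p = 1.29e-05) and Hdac2 (log2 -0.65, adjusted p = 3.90e-08). Trim33 (chr3:103279293-103358768), which acts with SMAD proteins, did not pass the threshold. It was at 99.3, 82.4 and 113 CPM with DMSO and 106, 103 and 109 with CMA in WT, and at 101, 103 and 105 and 107, 117 and 109 in STINGgt/gt. The spread was widest in WT with DMSO, and without its replicate 3 the WT adjusted p was 0.00263, against 0.238 with all libraries.

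Besides Trim66, 2 members fell at least 2-fold in WT. Trim16 (chr11:62820231-62850808), which lacks a RING finger and takes part in the clearance of damaged lysosomes, was at 4.11, 4.33 and 4.17 CPM with DMSO and 1.06, 0.740 and 1.45 with CMA in WT (log2 -1.96, SE 0.162, adjusted p = 1.50e-08, edgeR). Its exons overlap those of Fbxw10 on the same strand. In STINGgt/gt cells it went from 2.83, 2.71 and 2.77 CPM with DMSO to 1.65, 1.92 and 1.71 with CMA, the groups apart here too (log2 -0.65, SE 0.150, adjusted p = 0.0433). The STINGgt/gt call held in 11 of 21 alternative analyses. The adjusted p was 0.0618 without WT DMSO replicate 1, 0.0696 without WT CMA replicate 1 and between 0.0849 and 0.169 when any STINGgt/gt library was left out. With all libraries the call was also lost with limma on the deposited log2 table and under the replicate block by library name (adjusted p of up to 0.178). The CMA effect was more negative in WT than in STINGgt/gt (log2 difference -1.31, adjusted p = 0.000109). Trim13 (chr14:61598226-61605946), a ligase anchored in the endoplasmic reticulum, was at 4.95, 5.10 and 5.07 CPM with DMSO and 1.87, 2.19 and 1.99 with CMA in WT (log2 -1.32, adjusted p = 1.85e-08). STINGgt/gt libraries had 3.81, 3.64 and 4.20 CPM with DMSO and 3.17, 3.32 and 3.69 with CMA. These overlapped, with a log2 value of -0.19 (adjusted p = 0.457).

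**Figure D3:**
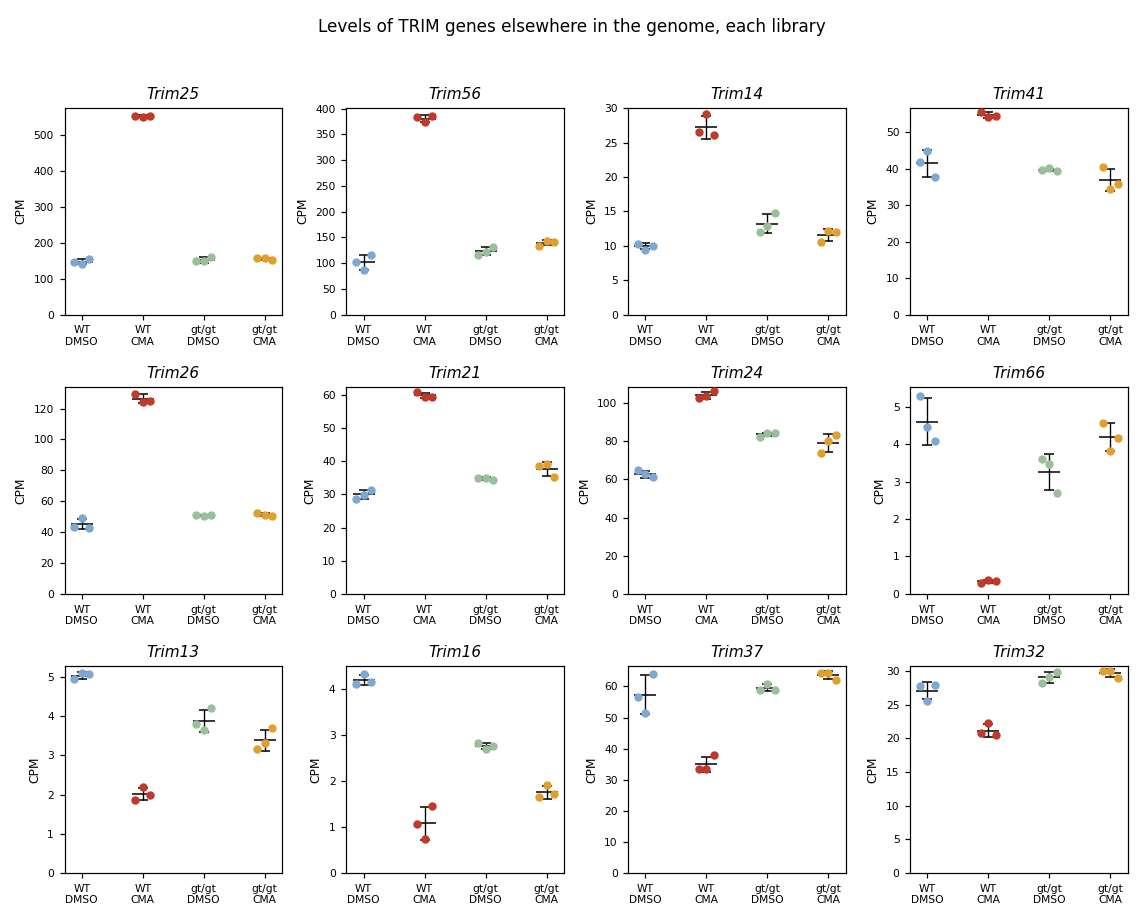
Panels show CPM on a linear axis from 0 for 12 TRIM genes outside the chromosome 7 group, with points for libraries, a dash for the mean and bars for the SD in each group of 3 (gt/gt stands for STINGgt/gt). WT with CMA lies above all other libraries for the first 7 panels, from Trim25 to Trim24, and below them for Trim66, Trim13, Trim16, Trim37 and Trim32.

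Smaller falls were seen in genes of several kinds. Trim37 (chr11:87127077-87220683), which limits the assembly of centrioles, was at 56.4, 51.6 and 63.9 CPM with DMSO and 33.4, 33.5 and 37.8 with CMA in WT (log2 -0.72, SE 0.0680, adjusted p = 7.89e-08). Its STINGgt/gt values were 59.0, 60.9 and 59.0 CPM with DMSO and 64.2, 64.5 and 62.1 with CMA, higher with CMA without passing the threshold (log2 0.09, adjusted p = 0.593). Trim2 (chr3:84160439-84305446), an NHL-repeat ligase best known in neurons, was barely expressed, at 0.765, 0.872 and 0.902 CPM with DMSO and 0.558, 0.524 and 0.441 with CMA in WT (log2 -0.74, adjusted p = 0.00538). Its STINGgt/gt values of 1.16, 0.958 and 1.12 CPM with DMSO and 1.28, 1.04 and 1.299 with CMA were above those of WT. It is the member that held the response element letters in its promoter window and was lower with CMA. Trim36 (chr18:46165302-46212607), a microtubule-linked ligase, was at 2.04, 1.61 and 1.97 CPM with DMSO and 1.12, 1.33 and 1.51 with CMA in WT (log2 -0.52, adjusted p = 0.00832, and 0.0531 without WT CMA replicate 1). Without functional STING it was at 1.57, 1.29 and 1.46 and 1.198, 1.199 and 1.07 CPM, a decline of similar sign that did not pass the threshold (log2 -0.32, adjusted p = 0.432), and the difference between the genotypes did not pass it either (adjusted p = 0.474).

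Trim27 (chr13:21179445-21194724), a nuclear and endosomal ligase, changed little, from 143, 150.5 and 137 CPM with DMSO to 126, 134 and 129.6 with CMA in WT (log2 -0.14, adjusted p = 0.00643). T cells of STINGgt/gt mice had 142, 139 and 142 CPM with DMSO and 143, 141 and 145 with CMA. Trim8 (chr19:46501648-46516444), which acts in p53 and cytokine signalling, was at 108, 112 and 104 CPM with DMSO and 95.5, 105 and 92.1 with CMA in WT, overlapping groups with a log2 value of -0.15 (adjusted p = 0.0134). In STINGgt/gt it was at 99.4, 97.4 and 97.6 and 98.9, 96.4 and 103 CPM. The WT call of Trim27 was lost with no filter on low counts (adjusted p = 0.0512) and with only the groups compared (adjusted p = 0.0872). That of Trim8 was lost when WT DMSO replicate 1, WT CMA replicate 1 or WT CMA replicate 3 was left out (adjusted p 0.0513, 0.0539 and 0.0819), and with all libraries in 3 other alternatives (adjusted p of up to 0.111). These shifts were small beside those of the genes above. Across the 6 TRIM genes known to act on p53 (Trim8, Trim24, Trim28, Trim32, Trim39 and Trim59), 1 was higher, 3 were lower and 2 did not pass the threshold in WT, with a median log2 change of -0.12. For all genes tested the shares were 33.0% higher and 37.4% lower.

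Several members with other roles were higher with CMA in WT by less than 2-fold. Trim62 (chr4:128883580-128911328), a ligase for the adaptor CARD9, was at 4.01, 3.69 and 4.41 CPM with DMSO and 6.78, 6.76 and 7.82 with CMA (log2 0.81, adjusted p = 2.10e-06). STINGgt/gt libraries had 3.66, 3.75 and 3.80 and 3.70, 3.21 and 3.64 CPM. Trim45 (chr3:100922202-100936925) was at 6.88, 7.45 and 5.56 CPM with DMSO and 10.6, 10.3 and 9.04 with CMA in WT (log2 0.61, adjusted p = 4.09e-05), and at 6.80, 6.70 and 6.50 and 6.39, 6.08 and 6.44 CPM in STINGgt/gt. Both genes rose in WT without overlap and neither passed the threshold in STINGgt/gt. Trim68 (chr7:102677580-102687326), a PRY-SPRY ligase, was at 7.72, 7.78 and 7.29 CPM with DMSO and 12.7, 10.9 and 10.8 with CMA in WT (log2 0.60, adjusted p = 1.08e-05). In STINGgt/gt its values were 10.6, 10.6 and 10.2 and 8.86, 10.2 and 8.60 CPM, the CMA libraries below the DMSO libraries by a log2 value of -0.18 that did not pass the threshold (adjusted p = 0.365). Trim23 (chr13:104178797-104203372), whose C-terminal part is a GTPase domain of the ARF kind, was at 29.2, 25.9 and 31.8 CPM with DMSO and 39.6, 40.0 and 39.2 with CMA in WT (log2 0.45, adjusted p = 1.19e-05).

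Trim46 (chr3:89234177-89246309), which bundles microtubules, was at 16.7, 18.6 and 15.3 CPM with DMSO and 19.97, 21.8 and 20.2 with CMA in WT (log2 0.30, adjusted p = 0.00295). Its STINGgt/gt values were lower, at 11.9, 12.3 and 13.9 and 12.2, 10.8 and 11.7 CPM, and it overlaps Krtcap2 on the other strand. Trim7 (chr11:48826140-48852209), a ligase that binds glycogenin, was at 5.10, 5.50 and 3.90 CPM with DMSO and 6.86, 5.71 and 5.67 with CMA in WT (log2 0.35, adjusted p = 0.0214), and at 4.17, 3.69 and 4.33 and 3.14, 3.42 and 3.72 CPM in STINGgt/gt. Its WT adjusted p was 0.117 without WT DMSO replicate 3 and 0.126 without WT CMA replicate 1. Both genes thus had a small rise in WT, which for Trim7 depended on single libraries. Trim11 (chr11:58978093-58991458), linked to the clearance of misfolded proteins, was at 26.2, 28.4 and 21.5 CPM with DMSO and 31.1, 29.6 and 29.4 with CMA in WT (log2 0.25, adjusted p = 0.0106), and at 26.0, 25.1 and 27.8 and 26.4, 24.4 and 26.5 CPM in STINGgt/gt. For the difference between genotypes its adjusted p was 0.0411, and it was 0.0772 under library-size scaling and between 0.0527 and 0.0916 when WT DMSO replicate 3, any WT CMA replicate, STINGgt/gt DMSO replicate 1 or 3, or STINGgt/gt CMA replicate 2 was left out. Trim35 (chr14:66297031-66311424), a PRY-SPRY ligase, was at 95.0, 90.1 and 99.2 CPM with DMSO and 109, 102 and 100.4 with CMA (log2 0.13, adjusted p = 0.0185). Its adjusted p was 0.0862 without WT DMSO replicate 2 and 0.114 without WT CMA replicate 1.

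Of the 40 members, 7 did not pass the threshold in WT: Trim3, Trim6, Trim33, Trim39, Trim44, Trim59 and Trim65. Trim39 (chr17:36258873-36272247), which stabilises the pro-apoptotic protein MOAP1, was at 34.9, 39.1 and 32.2 CPM with DMSO and 40.4, 37.0 and 37.4 with CMA in WT, and at 45.1, 44.8 and 47.2 and 45.4, 45.6 and 45.1 CPM in STINGgt/gt. Trim44 (chr2:102300119-102407828), which has a zinc finger of the deubiquitinase kind in place of a RING finger, was at 122, 112 and 133 CPM with DMSO and 122, 112 and 118 with CMA in WT, and at 152, 155 and 155 and 164, 167 and 166 CPM in STINGgt/gt. For both genes the WT groups overlapped and the STINGgt/gt libraries were higher than those of WT. Leaving out WT DMSO replicate 2 brought 3 of the 7 under an adjusted p of 0.05 in WT (0.00451 for Trim39, 0.0197 for Trim44 and 0.0117 for Trim59). With all libraries Trim39 was also under it in DESeq2 (0.0459), limma on the deposited log2 table (0.0271) and with at least 10 counts in every library (0.0290). The log2 values of Trim59, Trim65 and Trim3 were -0.12, -0.05 and 0.03.

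Members were also sorted into subfamilies by C-terminal part, each gene into 1, so that Trim36 and Trim46, which carry a PRY-SPRY domain besides the COS box, stand with the COS-box members. Of the 23 other PRY-SPRY members counted, 18 were higher, 2 lower (Trim16 and Trim27) and 3 not past the threshold in WT, beside 33.0% higher and 37.4% lower of all genes, with a median log2 change of 1.00. In STINGgt/gt 1 of the 23 was called, Trim16, beside 1.32% of all genes. Of the 3 NHL-repeat members none was higher, Trim2 and Trim32 were lower and Trim3 did not pass the threshold. The 2 COS-box members split, with Trim46 higher and Trim36 lower. Among the 8 members with another or no C-terminal domain, 3 were higher, 3 lower and 2 not past the threshold, shares near those of all genes, with a median of -0.09. The NHL-repeat and COS-box groups are too small to set against those shares.

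Levels of different genes were compared as CPM per kb of exon, using exon lengths of GENCODE M21. In WT with DMSO the highest were Trim28 at 94.0, Trim30a at 46.1, Trim59 at 31.6, Trim8 at 29.1, Trim27 at 26.1 and Trim25 at 25.5 CPM per kb. The lowest were Trim2 at 0.0428 and Trim34b at 0.0488. In WT with CMA the order at the top was Trim30a at 196, Trim25 at 95.9, Trim28 at 86.6, Trim30d at 68.4 and Trim12c at 59.1 CPM per kb. In STINGgt/gt with CMA Trim28 was again first, at 101, ahead of Trim30a at 48.7. WT with CMA was thus the group in which Trim30a and Trim25 stood above Trim28.

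**Figure D4:**
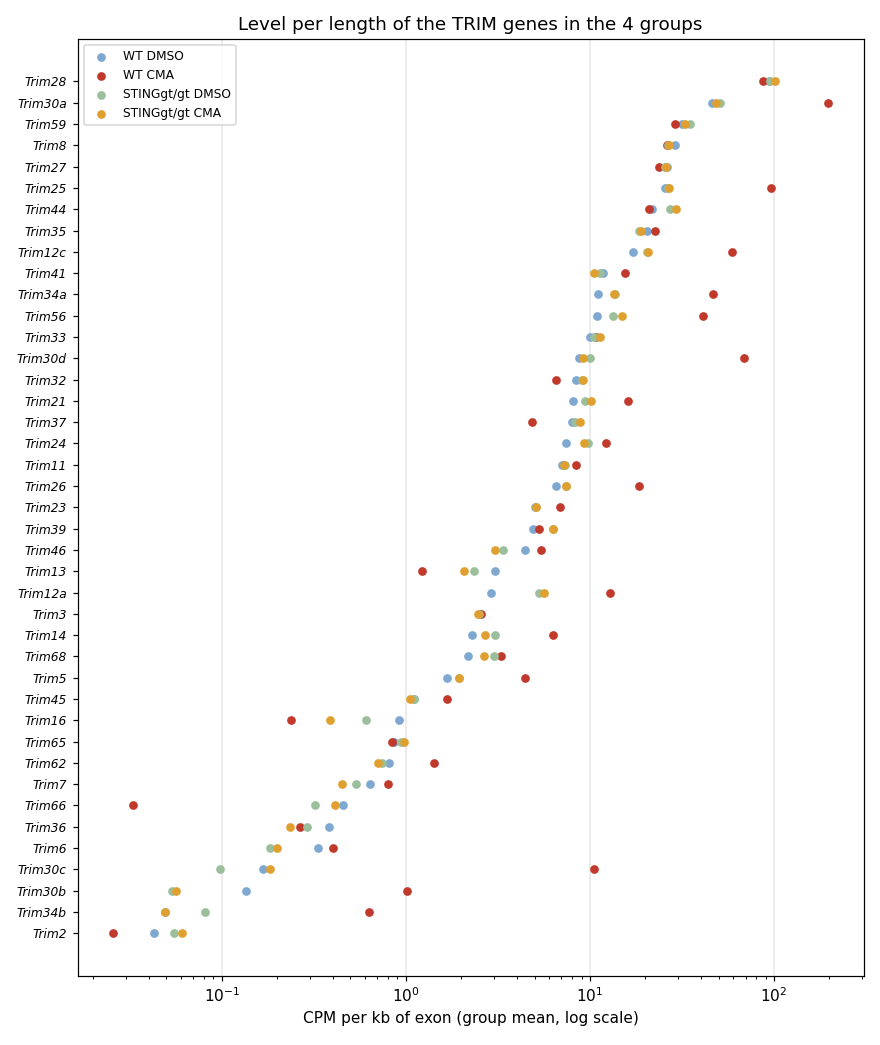
Points give the mean CPM per kb of exon on a log axis for each TRIM gene with an exon length, in the 4 groups, ordered by WT with DMSO. The WT points with CMA (red) leave the others to the right for the chromosome 7 group other than Trim6, and for Trim25, Trim56, Trim26 and Trim14, and to the left for Trim66, Trim16 and Trim13, with Trim30a at 196 as the highest point.

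The genotypes also differed with DMSO alone. Of the 40 members, 19 were called, a share near the 42.7% of all genes. They were 8 higher and 11 lower in WT than in STINGgt/gt, beside 22.9% and 19.8% of all genes. Without WT DMSO replicate 3 the count lower in WT was 17. A 2-fold difference as well was met by 1 member, Trim30b, higher in WT, and by none lower, beside 5.73% and 1.56% of all genes. The median log2 difference was -0.06 for the members and -0.00 for all genes. The sums of B cell, myeloid and CD8 and NK markers given above were higher in WT as well: 6 of 6 B cell markers, 6 of 6 myeloid markers tested and 5 of 6 CD8 and NK markers were called higher in WT with DMSO, beside 22.9% of all genes. Their part in the genotype difference of the TRIM genes was not tested. The 4 members with the smallest p were all lower in WT. For Trim12a, with the library values given above, the log2 difference was -0.85 (SE 0.0725, adjusted p = 9.49e-08, edgeR). It was -0.41 for Trim24 (adjusted p = 2.48e-06), -0.37 for Trim39 (adjusted p = 0.000123) and -0.33 for Trim44 (adjusted p = 0.000142). In each of these genes all 3 WT libraries lay below all 3 STINGgt/gt libraries. Such non-overlap was seen in 13 of the 40 members with WT below and 9 with WT above, beside 22.6% and 25.3% of all genes.

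Of the 14 TRIM genes commonly held to be interferon-inducible, 7 were lower and 2 higher in WT than in STINGgt/gt with DMSO, beside 19.8% and 22.9% of all genes, and their median log2 difference was -0.19. The 2 higher ones were Trim30b, at a log2 difference of 1.35 (adjusted p = 0.000328), and Trim6, at 0.82 (adjusted p = 0.00681), both at low levels. Lower ones besides Trim12a were Trim14 (-0.41), Trim34a (-0.30), Trim56 (-0.27), Trim12c (-0.26), Trim21 (-0.21) and Trim26 (-0.17). The call for Trim56 was lost without STINGgt/gt DMSO replicate 3 (adjusted p = 0.0509). Trim30a, Trim30d and Trim5 did not pass the threshold with all libraries, and had adjusted p-values of 0.000412, 0.00177 and 0.0144 without WT DMSO replicate 3, in which all 3 were higher than in the other WT libraries with DMSO. With all libraries Trim30a and Trim30d also passed with no filter on low counts (adjusted p of 0.0295 and 0.0151), and Trim5 under library-size scaling, limma on the deposited log2 table and at least 10 counts in every library (0.0338, 0.0286 and 0.0384). Among the members that fell with CMA, Trim16 was higher in WT by a log2 value of 0.60, Trim66 by 0.48, Trim13 by 0.38 and Trim8 by 0.14 (adjusted p of 0.00202, 0.00783, 0.00562 and 0.0333). The call for Trim8 was lost when any of 5 DMSO libraries was left out (all but WT replicate 3), with adjusted p-values of 0.0650 to 0.115, and in 5 alternatives that kept all libraries of that comparison (0.0565 to 0.0886). Trim46 (0.40, adjusted p = 0.000814) and Trim35 (0.15, adjusted p = 0.0176) were higher in WT, and Trim68 (-0.47, adjusted p = 0.000387) was lower. For Trim35 the adjusted p was 0.0575, 0.0727 and 0.0971 without WT DMSO replicate 1, WT DMSO replicate 3 and STINGgt/gt DMSO replicate 1, and the call was also lost with no filter on low counts and with only the groups compared.

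**Figure D5:**
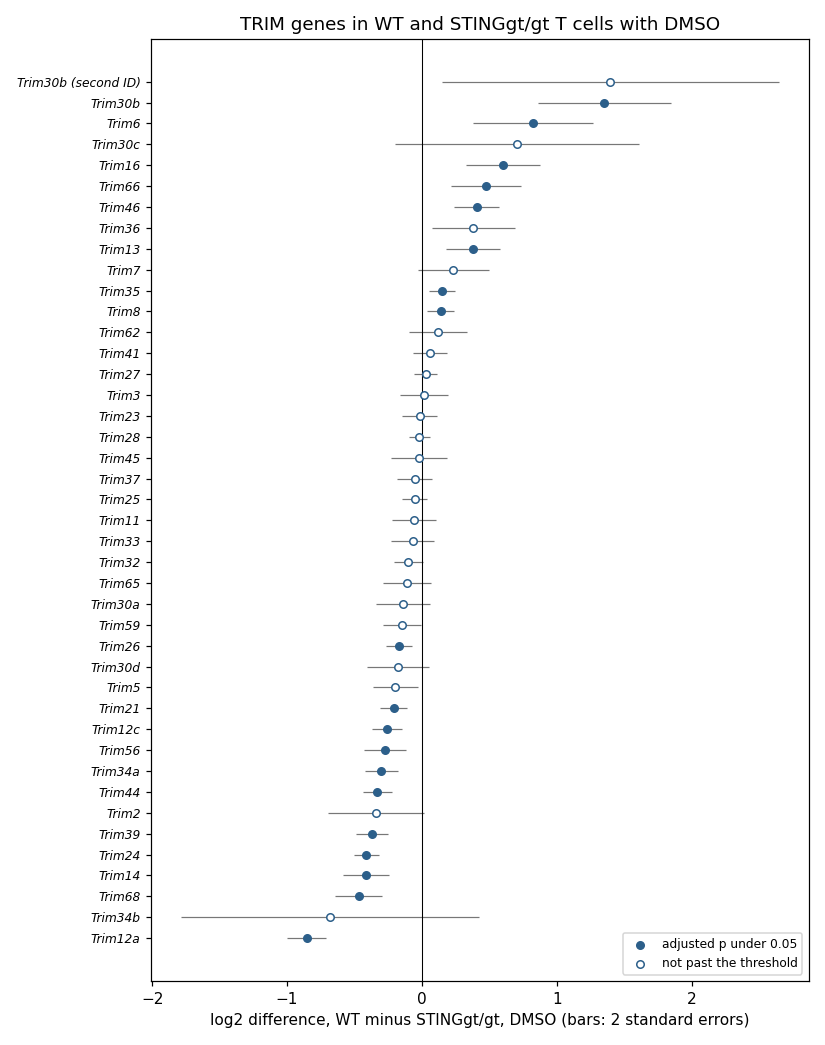
Points give the log2 difference of each TRIM gene between WT and STINGgt/gt T cells with DMSO, positive where WT was higher, with bars of 2 standard errors from edgeR, and filled points are past an adjusted p of 0.05. Trim30b at 1.35 and Trim12a at -0.85 lie farthest out among the filled points.

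TRIM proteins work with other parts of the ubiquitin system, which were read in the same test. ISG15, a ubiquitin-like protein that TRIM25 can attach to targets, and the enzymes that handle it rose together in WT: 5 of 5 genes were higher, beside 33.0% of all genes, with a median log2 change of 4.02, and none was called in STINGgt/gt, beside 1.32% of all genes. Isg15 went from 11.7 ± 2.09 CPM to 427 ± 18.7 (SD, n = 3) in WT (log2 5.17, adjusted p = 1.54e-15), and Herc6, the main ISG15 ligase in mice, changed by a log2 value of 4.08 (adjusted p = 2.50e-17). TRIM ligases also need an E1 enzyme and E2 enzymes, read here as Uba1 and genes of the UBE2D, UBE2E, UBE2K, UBE2N, UBE2V and UBE2W kinds. Of these 12 genes 2 were higher, 7 lower and 3 not past the threshold in WT, beside 33.0% and 37.4% of all genes, with a median log2 change of -0.21 and none called in STINGgt/gt. Uba1, the main ubiquitin-activating enzyme, went from 899 ± 33.2 to 594 ± 8.86 CPM (log2 -0.60, adjusted p = 1.58e-09), and Ube2n, which builds lysine-63-linked chains, from 64.1 ± 3.56 to 49.2 ± 1.74 CPM (log2 -0.38, adjusted p = 5.75e-06). Of the TRIM proteins whose genes have other names, Pml rose from 275 ± 9.80 to 540.0 ± 9.31 CPM in WT (log2 0.97, adjusted p = 1.12e-11) and Mid1 by a log2 value of 0.63 (adjusted p = 0.0183), while Mid2 did not pass the threshold (log2 -0.27, adjusted p = 0.159). None of these 3 was called in STINGgt/gt.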

How the data were processed

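The members and gene lists were chosen with earlier results of these data known. Per the labels and the study's methods, libraries came from a strand-specific mRNA kit, and the processing notes name cutadapt 1.3, STAR 2.4.0f1, HTSeq 0.6.1 and RSEM 1.2.16 with GRCm38. The annotation release and the strand setting of the counting are not given in the sources used here. The authors deposited raw read counts per gene and a log2 table, in which each value was the log2 of the count plus 0.5, shifted by a constant per library. Members came from that table, and tests used the counts. With edgeR 4.0.16 (R 4.3.3), genes were filtered by filterByExpr, scaled by TMM and fitted with the 4 groups in a single quasi-likelihood model, with Benjamini-Hochberg adjustment over 13811 genes. On data simulated for CMA against DMSO in WT (13553 genes), 169 of 196 changed genes were recovered and 11 unchanged genes called. In the real comparison 70.4% of all genes were called, far more than were changed in the simulation. The simulation therefore does not test the scaling or the error rate in that setting. Values in every library were given for the 6 largest and 6 smallest WT changes (called, non-overlapping, mean count of at least 50), the cGAS and STING and TIF1 members, members called in STINGgt/gt, the 4 smallest p between genotypes with DMSO, members whose effects had opposite signs and differed, and a few others. Alternatives were library-size scaling, DESeq2 1.42.0, limma 3.58.1 (voom, and on the log2 table), other filters, only the groups compared, replicate blocks and leaving out each library. Counts on wholly shared sequence, protein sequences and the study's other experiments were not analysed here. Precision is limited by 3 libraries per group.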

Additional observations from a re-analysis of the deposited data

Results flagged for a closer look

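For 31 of the 40 members counted, edgeR's test of the difference itself (adjusted p under 0.05) found unequal CMA effects in the 2 genotypes, beside 58.8% of all genes tested. All values here are log2 differences of the CMA effect, WT minus STINGgt/gt. Those of at least 1 on that scale were Trim30c (5.11), Trim30d (3.07), Trim30b (2.81), Trim12a (2.03), Trim30a (2.15), Trim34a (2.08), Trim25 (1.88), Trim56 (1.72), Trim12c (1.77), Trim26 (1.47), Trim14 (1.64) and Trim5 (1.39). Trim34b and the second Trim30b ID passed the filter on low counts only through WT with CMA, so that they had to differ. Their fitted values of 4.31 and 2.57 rest on counts of at most 7 outside WT with CMA and are given as a description, with no test.

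Smaller positive differences were Trim21 (0.88), Trim62 (0.9), Trim24 (0.81), Trim45 (0.69), Trim68 (0.79), Trim23 (0.44), Trim41 (0.51), Trim7 (0.6), Trim46 (0.43) and Trim11 (0.28). Negative ones were Trim28 (-0.21), Trim27 (-0.17), Trim8 (-0.17), Trim32 (-0.39), Trim37 (-0.81), Trim2 (-0.89), Trim13 (-1.13), Trim16 (-1.31) and Trim66 (-4.12). The values for Trim11, Trim27 and Trim8 lost significance when single libraries were left out, with adjusted p-values of up to 0.0916, 0.0781 and 0.156. With all libraries Trim11 also lost it in 1 alternative (0.0772), Trim27 in 4, among them the replicate block by library name (0.0600; up to 0.110 over the 4), and Trim8 in 4 (up to 0.136). Trim2 lost it with DESeq2 (0.0556).

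Among the Trim-named genes that are not in the expression table, Trim43a, a gene with near-identical copies, had counts of 5, 5 and 7 in WT with CMA, so that its lowest count there was 5, above the level in every DMSO library. Its counts elsewhere were at most 3. No test was run on it.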

How the results depend on the processing

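No member reversed its direction past the threshold in any of the alternatives run. Of the single-gene results, 3268 kept their side of the threshold, 82 were no longer past it and 30 newly passed it. This tally runs over all 42 members. It thus includes Trim34b and the second ID of Trim30b, whose WT calls followed from the filter. The sign changed in 66 of the 3268, which were not past the threshold either way. Of the 33 members called in WT 27 were called in every alternative, as were 27 of the 31 called for the difference and 16 of the 19 called between genotypes with DMSO. Leaving out each library in turn gave 21 to 24 members higher and 7 to 12 lower in WT, 0 higher and 0 to 1 lower in STINGgt/gt, 21 to 23 with a more positive and 7 to 9 with a more negative effect in WT, and 6 to 8 higher and 10 to 17 lower in WT than in STINGgt/gt with DMSO. The 17 came without WT DMSO replicate 3, and the cause was not tested. Requiring a 2-fold change left 12 higher and 3 lower in WT, 0 lower in STINGgt/gt, 12 and 3 for the difference, and 1 higher and 0 lower with DMSO, by the construction of that rule. In STINGgt/gt 1 member, Trim56, was higher with no filter on low counts and with only the groups compared, and 0 were lower with limma on the deposited log2 table and under the replicate block by library name, and the cause was not tested.

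Same-numbered libraries of a genotype deviated together only weakly, and in WT not throughout, so the numbers were not taken to pair them. Their library names share a first digit in every such pair but that of STINGgt/gt replicate 2. The correlations of the deviations of same-numbered libraries were all positive, from 0.0202 to 0.251 in WT and from 0.112 to 0.149 in STINGgt/gt. With a replicate block, 23 members were higher and 10 lower in WT, 0 higher and 1 lower in STINGgt/gt, and 22 and 10 for the difference. By library name the block gave 23 and 10 in WT, and 22 and 8 for the difference. It left the STINGgt/gt libraries of replicate 2 without a partner. Each STINGgt/gt library with DMSO correlated best with its own number, while WT DMSO replicate 1 correlated best with WT CMA replicate 2.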
